A study of Mus musculus with 10 samples.

Results

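The genes described here encode potassium channel subunits of the voltage-gated Kv1, Kv2, Kv3, Kv7 and ether-à-go-go families, of the tandem-pore leak channels and of the sodium-activated channels, with their silent and accessory subunits. They are all gene symbols starting with Kcn, without the Kv4 complex, the calcium-activated channels, the inward rectifiers and antisense or overlapping transcripts, which left 63 of 98 such symbols among 32531 genes. Of these, 51 had at least 20 read counts in the input or in the mean saline immunopurified library and are the members described; 12 did not reach this minimum. Just inside it lay Kcne4, with 25 counts in the input and 0 in the saline libraries, and just outside it Kcnk7, with 16 counts in the input and a mean of 0.333 in the saline libraries.

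Whole striatum was taken from adult Chat-TRAP (DW167) animals, mice that carry EGFP fused to the ribosomal protein Rpl10a (Chat-EGFP/Rpl10a). The fusion marks ribosomes of cells in which the Chat regulatory sequence drives it, so that tagged ribosomes can be pulled down with antibodies against EGFP and their RNA sequenced (translating ribosome affinity purification). Immunopurified RNA was sequenced in 3 libraries for each of 3 groups, which had self-administered saline, had self-administered cocaine or served as yoked controls. A further library, the input, held total RNA of the saline condition. The labels give no age beyond adult and state neither sex, number of animals per library, cocaine dose nor what yoked animals received. Nothing says that the libraries of a group came from separate animals, so p-values measure the spread between these libraries, which may be technical.

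Potassium channels let potassium leave the cell and so set the resting potential, end each action potential and space the next. Striatal cholinergic interneurons fire without synaptic drive, and their potassium currents shape the rate and the pauses of that firing. Most voltage-gated channels are tetramers of subunits within a family, tandem-pore channels are open at rest as leak channels, and Kv7 channels are closed when muscarinic receptors of the Gq type are activated.

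The immunopurified libraries held 24526765 to 75220922 gene counts and the input 40912230. Against the input, all 12 cholinergic markers stood at least 2-fold higher in all 3 saline libraries (median log2 ratio 5.33 ± 0.14, SD of the library medians, n = 3). Gbx2 among them reached the count minimum through saline alone, so the minimum favours that direction for it. All 10 spiny projection neuron, 8 astrocyte, 8 oligodendrocyte and 7 microglia markers stood at least 2-fold lower. The other lists were mixed. Of other interneuron markers 7 of 9 stood so (Lhx6 was 4.22-fold higher), and of oligodendrocyte precursor markers 3 of 4 (Pdgfra 2.54-fold higher). So did 5 of 6 cortical, 5 of 7 endothelial and mural, 4 of 5 D2-type and 5 of 7 D1-type spiny neuron markers. Isl1, on the cholinergic and D1-type lists, was higher. Chrm4 (D1-type) and Th (other interneuron) also lay above the input in all 3 saline libraries, 2.07-fold and 1.90-fold. Some markers counted as lower reached the minimum through the input alone, so the minimum favours that direction for them. They were C1qa, C1qb and Tmem119 (microglia), Cspg4 and C1ql1 (oligodendrocyte precursor), Calb2 (other interneuron), Emx1 (cortical) and Cldn5, Kdr and Acta2 (endothelial and mural). RNA of other cells was not absent: the spiny neuron markers summed to 12619 CPM (counts per 1000000 gene counts) in the input, to 1014 to 2243 CPM in the saline, 1120 to 2026 in the cocaine and 1463 to 1841 in the yoked libraries. Saline libraries are labelled with lane 3, the cocaine and yoked libraries with lane 4 and the input with lane 5. Sequencing lane therefore cannot be told apart from group in any comparison with saline or with the input. In these bulk samples fewer cells of a type and less RNA per cell cannot be told apart. The input was total RNA and the other libraries held RNA of tagged ribosomes. Ratios therefore include any difference between these kinds of RNA, which was not tested.

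The first comparison, of immunopurified RNA with total striatal RNA in saline animals, asked which of these channel subunits are richer on the tagged ribosomes. All 3 saline libraries lay below the input in 32 of 51 members and above it in 14. The share of all genes on each side was not counted by this criterion, so these counts are description only. Of the 51, 22 stood at least 2-fold below the input in all 3 saline libraries, 6 stood at least 2-fold above it, and 23 did neither. The 6 were Kcnh8, Kcnk9, Kcnh2, Kcnk12, Kcnt2 and Kcng3. Over all 15888 genes at the count minimum, 23% stood that far below and 12.1% that far above; the members' shares were 43.1% and 11.8%. The median log2 ratio over the members was −1.45 ± 0.41 (SD of the library medians, n = 3), against −0.19 ± 0.024 over all genes. Among genes with at least 100 input counts, 18 of 38 members (47.4%) and 18.6% of 12242 genes stood at least 2-fold below. That minimum was set on the input alone, so it left out Kcnh8 and Kcnk12, which stood above with 20 and 40 input counts. The input has no replicate, so these ratios carry no test, and their SD covers the saline libraries only. Counting error of the input was small for most members: Kcna1 had 20505 input counts, an exact Poisson interval of 494 to 508 CPM at the 95% level.

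Of the 51 members, 46 reached the count minimum in both kinds of library. Kcne1l, Kcne4, Kcnk6 and Kcns3 reached it in the input alone, so the minimum itself favours that direction for them and they support nothing about the group. All 4 are among the 22 below. Among genes that reached the minimum in the input and in saline alike, a set chosen after seeing the data, 18 of 46 members (39.1%) stood at least 2-fold below and 6 (13%) above, against 13.8% and 12.9% of 13073 genes. Their median log2 ratio was −1.02 ± 0.33, and that of all such genes 0.023 ± 0.044 (SD of the library medians, n = 3). Summed over the members, the reads came to 3790 CPM in the input and to 1845, 2467 and 2002 CPM in the saline libraries. For comparison, the median log2 ratio was −0.40 for 7 genes of the Kv4 complex, −1.45 for 7 calcium-activated channel genes and −2.60 for 11 inward rectifiers, with 2, 4 and 6 of them at least 2-fold below the input. These medians are given as descriptions, and differences between the sets were not tested.

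**Figure D1:**
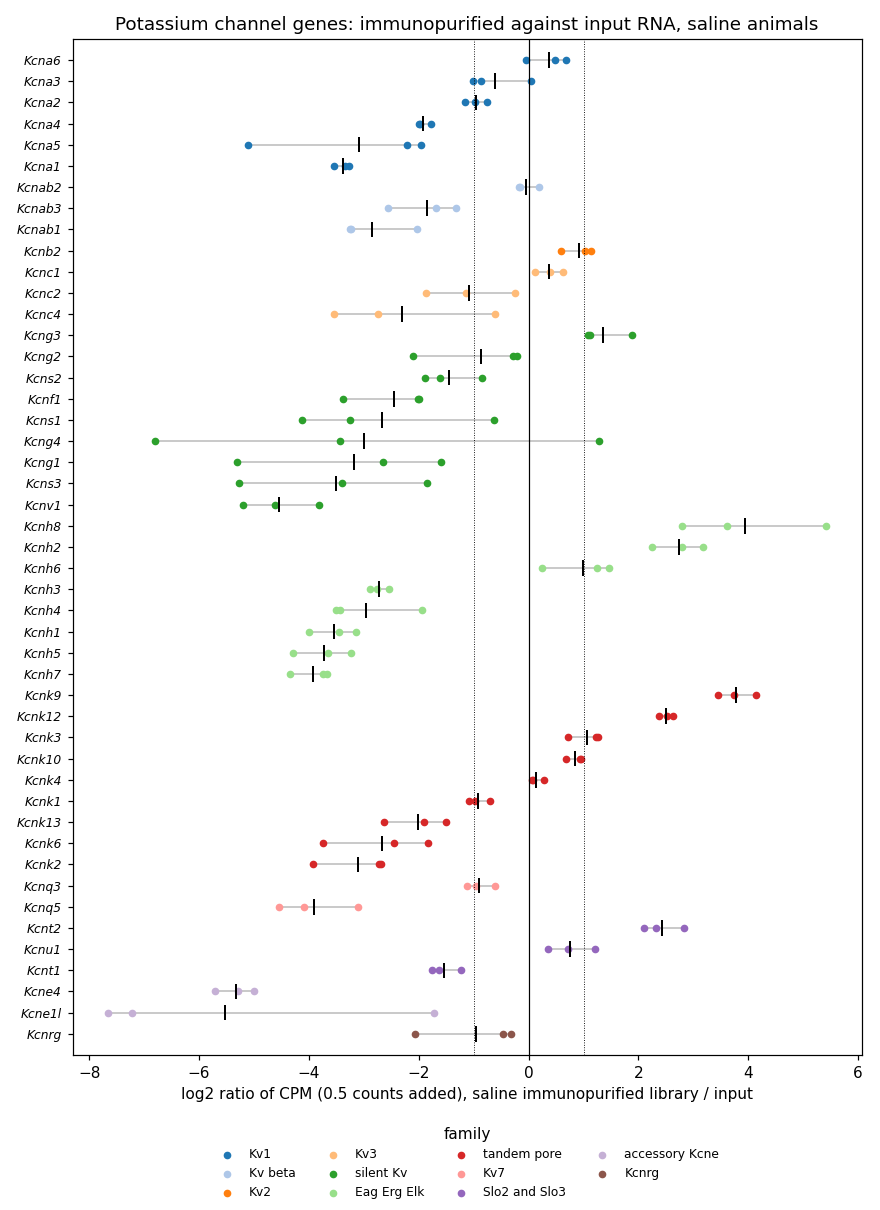
Log2 ratio of CPM in each saline immunopurified library (points) to the 1 input library for 47 potassium channel genes, ordered by family (colours) and by mean (black ticks); dotted lines mark 2-fold. In 6 genes all 3 points lie beyond the right dotted line and in 21 all 3 lie beyond the left one; the points of Kcng4 spread most.

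The ether-à-go-go family, with 8 members in 3 branches, split most widely. It comprises the Eag genes Kcnh1 and Kcnh5, the Erg genes Kcnh2, Kcnh6 and Kcnh7, whose current is best known for repolarising heart muscle, and the Elk genes Kcnh3, Kcnh4 and Kcnh8. Within the Erg branch Kcnh2 measured 14.8 CPM in the input and 70.5, 134 and 102 CPM in the saline libraries, 6.69-fold higher. Kcnh7 lay on the other side, with 48.9 CPM in the input and 2.38, 3.63 and 3.82 CPM in the saline libraries, 15.2-fold lower. In both genes all 3 saline libraries lay on the same side of the input, which for Kcnh6 also held, at 2.98 CPM in the input and 7.07, 3.53 and 8.22 CPM in the saline libraries, with 2 of the 3 libraries at least 2-fold higher.

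RefSeq windows (GRCm38.p6, the assembly of mm10), each of 300 bases from 250 bases before a transcription start through the first 50 transcribed, are shown for the Erg genes because these paralogs lie on opposite sides of the input. They are written 5′ to 3′ on the gene's strand with CG dinucleotides in capitals. The Kcnh2 window is chr5:24329542-24329841 on the minus strand, with a start 22093 bases into the gene as annotated. The Kcnh6 window is chr11:106007898-106008197 on the plus strand, with a start 104 bases into the gene, and the Kcnh7 window is chr2:63184238-63184537 on the minus strand, at the gene's own start.
Kcnh2: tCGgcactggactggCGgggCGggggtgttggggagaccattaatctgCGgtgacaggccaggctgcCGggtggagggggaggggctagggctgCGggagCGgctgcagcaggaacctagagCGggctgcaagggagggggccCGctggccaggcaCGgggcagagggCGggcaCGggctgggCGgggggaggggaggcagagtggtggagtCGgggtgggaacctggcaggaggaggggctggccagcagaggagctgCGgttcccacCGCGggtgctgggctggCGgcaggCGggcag
Kcnh6: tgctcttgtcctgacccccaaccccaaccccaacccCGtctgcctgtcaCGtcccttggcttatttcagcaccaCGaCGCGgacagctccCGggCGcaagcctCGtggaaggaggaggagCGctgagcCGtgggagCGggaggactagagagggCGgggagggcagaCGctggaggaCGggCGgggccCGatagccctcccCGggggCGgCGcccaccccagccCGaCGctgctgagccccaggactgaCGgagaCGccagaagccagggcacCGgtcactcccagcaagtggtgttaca
Kcnh7: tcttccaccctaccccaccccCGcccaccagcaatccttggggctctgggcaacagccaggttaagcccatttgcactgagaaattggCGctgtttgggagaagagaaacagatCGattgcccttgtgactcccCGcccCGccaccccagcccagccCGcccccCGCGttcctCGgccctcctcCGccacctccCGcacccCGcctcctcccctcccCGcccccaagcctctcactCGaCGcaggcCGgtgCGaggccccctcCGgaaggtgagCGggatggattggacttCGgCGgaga
The windows hold 19, 24 and 21 CG dinucleotides, where the median of all 32851 windows in the table is 7 and the upper quartile 20. The window of Kcnh2, high after purification, and that of Kcnh7, low after purification, thus both lie well above that median. The homeobox core TAATTA, its own reverse complement, is in 5.29% of all windows, and TATAAA, on either strand, in 13.6%. The first window of each of the 33 members that the table lists held neither motif, be it among the 5 that stood above the input, the 14 below or the 14 others.

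In the Elk branch Kcnh8 had a high ratio with a wide spread. It measured 0.489 CPM in the input, from 20 counts (95% interval 0.299 to 0.755 CPM), and 6.09, 21.3 and 3.47 CPM in the saline libraries, 15.3-fold higher. Saline library 2 was the highest of all 9 immunopurified libraries, and the 6 cocaine and yoked libraries held 2.51 to 5.66 CPM. The mean log2 ratio of Kcnh8 was 3.94 ± 1.34 (SD, n = 3), the highest of the 51 members, but 3.20 without saline library 2, below the 3.59 of Kcnk9 without that library. Over all 9 immunopurified libraries the median was 2.87 for Kcnh8 and 3.65 for Kcnk9. The other Elk genes stood lower, Kcnh3 6.61-fold and Kcnh4 7.76-fold. Both Eag genes were also lower: Kcnh1 measured 79.0 CPM in the input and 8.90, 4.90 and 7.20 CPM in the saline libraries, 11.6-fold lower, and Kcnh5 30.9 CPM and 3.28, 1.56 and 2.45 CPM, 13.2-fold lower. All 3 libraries lay below the input for both. Kcnh3 overlaps Mcrs1 and Kcnh7 overlaps Gca in the annotation, and with no strand setting stated their reads may not be told apart.

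The tandem-pore genes, which form leak channels, had a median log2 ratio of 0.14 over 9 members, 2 at least 2-fold above and 3 at least 2-fold below the input, the latter including Kcnk6, which reached the minimum in the input alone. Over the 8 that reached it in both kinds of library the median was 0.50. Kcnk9, an acid-sensitive channel of the TASK subfamily, measured 6.21 CPM in the input and 67.9, 109.5 and 82.7 CPM in the saline libraries, 13.7-fold higher. Kcnk3, the other TASK gene among the members, measured 8.63 CPM and then 14.1, 20.1 and 20.7 CPM, 2.09-fold higher. Both TASK genes lay above the input in all 3 libraries, and Kcnk3 was under 2-fold in library 1. Kcnk12, of the THIK subfamily, measured 0.978 CPM in the input, from 40 counts (0.698 to 1.33 CPM), and 5.12, 5.70 and 6.08 CPM after purification, 5.69-fold higher with the 3 libraries close together. Its relative Kcnk13 was 4.04-fold lower, at 5.67 CPM in the input and 0.898, 1.5 and 2 CPM. The mechanically and lipid-gated TREK channel gene Kcnk2 was 8.61-fold lower, at 142 CPM and then 22.1, 9.39 and 21.6 CPM, while its subfamily members Kcnk10 and Kcnk4 had log2 ratios of 0.85 ± 0.15 and 0.14 ± 0.13 (SD, n = 3). The TWIK genes Kcnk1 and Kcnk6 had ratios of −0.92 ± 0.20 and −2.68 ± 0.98.

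Of the Kv7 genes, which make the M-current, Kcnq3 measured 101 CPM in the input and 52.2, 66.0 and 46.4 CPM in the saline libraries, 1.86-fold lower and below the input in all 3. Kcnq5 lay further below, at 153 CPM and then 17.8, 6.59 and 8.98 CPM, 15-fold lower. The ratio of Kcnq5 thus lay among the lowest of the members with at least 100 counts.

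Sodium-activated channels of the Slo2 group divided. Kcnt2 measured 26.2 CPM in the input and 113, 187 and 131 CPM in the saline libraries, 5.36-fold higher. Its paralog Kcnt1 measured 66.4 CPM and then 19.6, 28.2 and 21.3 CPM, 2.92-fold lower. The libraries of the paralogs lay on opposite sides of the input without exception. Kcnu1, the pH-gated Slo3 gene best known from sperm, had a log2 ratio of 0.76 ± 0.42 (SD, n = 3), from 80 input counts.

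None of the 6 Kv1 genes, whose channels open at low threshold in axons, stood 2-fold above the input, and 3 stood at least 2-fold below it. Kcna1 measured 501 CPM in the input and 49.2, 51.8 and 43.2 CPM in the saline libraries, 10.5-fold lower with little spread. Kcna2, often found in the same channels, measured 481 CPM and then 246, 285 and 216 CPM, 1.95-fold lower. Kcna4 was 3.78-fold lower. Kcna5 was 8.55-fold lower, a log2 ratio of −3.10 that was −2.09 without saline library 2. Kcna3 had a log2 ratio of −0.61 ± 0.57 and Kcna6 of 0.37 ± 0.38 (SD, n = 3). Of the cytoplasmic beta subunits that bind Kv1 channels, Kcnab1 measured 422 CPM in the input and 103, 44.4 and 44.6 CPM, 7.17-fold lower, and Kcnab3 was 3.62-fold lower. Kcnab2 measured 101 CPM in the input and 91.0, 116 and 89.9 CPM, so its saline libraries lay on both sides of the input; it overlaps Nphp4 in the annotation.

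Kcnb2, a Kv2 subunit and thus part of a delayed rectifier of the cell body and dendrites, measured 20.5 CPM in the input and 30.9, 44.7 and 41.6 CPM in the saline libraries, 1.89-fold higher. All 3 libraries lay above the input. Of the Kv3 genes, which allow fast spiking, none stood 2-fold away from the input in all 3 libraries. Kcnc1 measured 114 CPM in the input and 123, 176 and 149.7 CPM in the saline libraries, 1.3-fold higher. Kcnc2, at 67.6 CPM and then 18.5, 30.7 and 57.2 CPM, and Kcnc4, at 17.5 CPM and then 1.48, 11.4 and 2.61 CPM, varied more between libraries. The mean log2 ratio of Kcnc4 was −2.30, but −1.67 without saline library 1 and −3.14 without saline library 2.

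Silent subunits, which do not form channels alone and modify Kv2 channels, had a median log2 ratio of −2.67 over 9 members, with 4 at least 2-fold below the input, including Kcns3, which reached the minimum in the input alone, and 1, Kcng3, above it. Over the 8 that reached the minimum in both kinds of library the median was −2.56. Kcng3 measured 30.7 CPM in the input and 65.1, 113 and 66.3 CPM in the saline libraries, 2.57-fold higher. Kcnv1 had the lowest ratio of the members with at least 100 counts, at 68.6 CPM in the input and 4.88, 2.77 and 1.85 CPM, 23.3-fold lower. Kcnf1 and Kcng1 were 5.50-fold and 9.08-fold lower, and Kcns3 and Kcns2 had log2 ratios of −3.51 ± 1.71 and −1.45 ± 0.54 (SD, n = 3). Kcns1 and Kcng2 stood at −2.67 ± 1.82 and −0.86 ± 1.08. Single libraries moved several of these log2 ratios. Without saline library 2 that of Kcng1 was −2.12, against −3.18 with all 3, that of Kcns1 −3.69, that of Kcng2 −0.24 and that of Kcns3 −2.62. Without saline library 1 Kcng1 stood at −3.98 and Kcns1 at −1.94, and without saline library 3 Kcns3 stood at −4.33. Kcng4 measured 2.18 CPM in the input and 0, 5.31 and 0.190 CPM in the saline libraries, so that its mean ratio describes none of them.

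Of the accessory Kcne subunits, single-pass proteins that alter gating, Kcne1l measured 2.37 CPM in the input and 0.703, 0 and 0 CPM in the saline libraries. With 3 counts taken as the floor of each library at 0, it was at least 24.8-fold lower in those 2 libraries. Kcne4 had 25 input counts and 0 in all 3 saline libraries, at least 5.22-fold lower in each by the same floor. The median over the members is the same with Kcne4 at this bound. Kcnrg, which codes for a soluble protein that hinders channel assembly, measured 2.84 CPM and then 2.03, 2.26 and 0.665 CPM and overlaps Trim13 and Dleu2. Without molecular identifiers, reads are not independent molecules, and the intervals and floors given here allow for counting error alone.

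The cocaine and yoked libraries, which did not enter the counts above, gave a further look at these ratios against the same input. Of the 6 members at least 2-fold above it in all 3 saline libraries, 5 were so in all 9 immunopurified libraries. The exception was Kcng3, at 53.1 CPM in cocaine library 3 and 46.7 CPM in yoked library 3 against 30.7 CPM in the input. Of the 22 members below, 19 were so in all 9 libraries, the others being Kcnab3, Kcnk6 and Kcnk13. Of the 18 that reached the minimum on both sides, 16 were so. Over all 15888 genes at the count minimum, 1374 of the 1930 above and 2582 of the 3653 below in saline were so in all 9. The 9 libraries share 1 input library, so an error in its counts would touch every ratio.

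**Figure D2:**
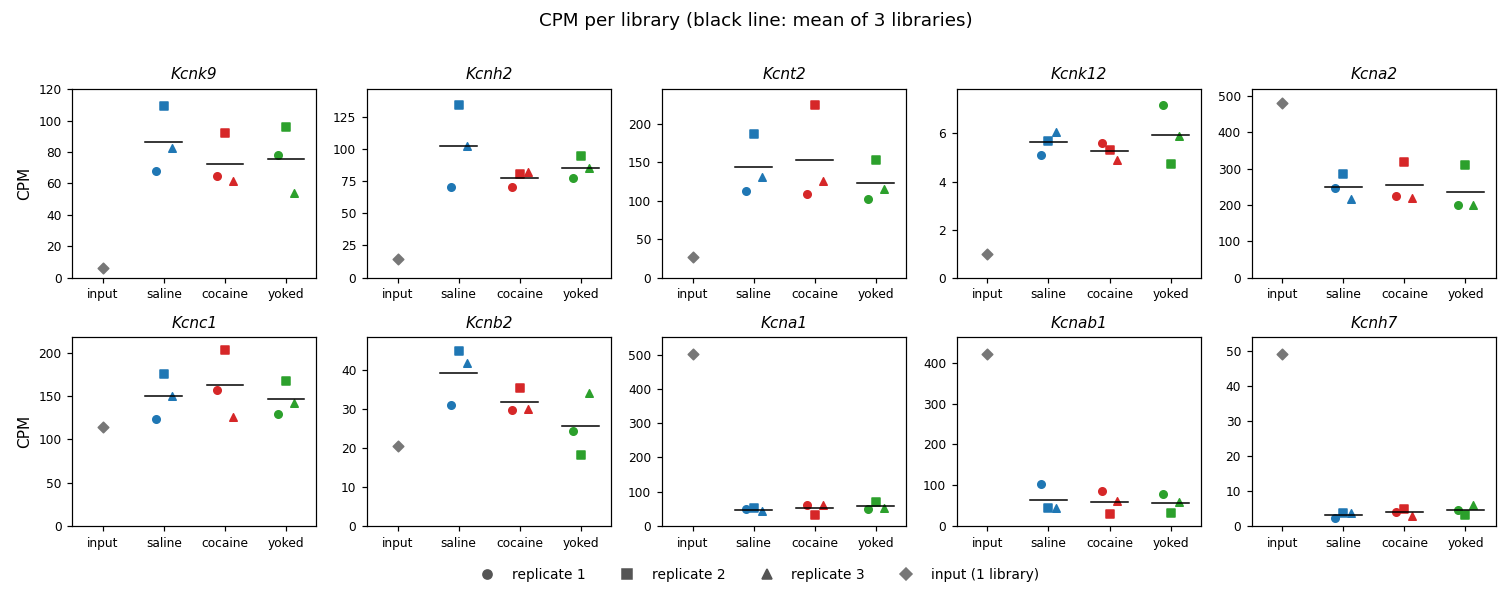
CPM of 10 potassium channel genes in the input (diamond) and in the 9 immunopurified libraries by treatment (circle, square and triangle for replicates 1, 2 and 3; black line, group mean). For Kcnk9, Kcnh2, Kcnt2 and Kcnk12 every immunopurified library lies above the input, and for Kcna2, Kcna1, Kcnab1 and Kcnh7 every one lies below it.

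Genes whose proteins anchor or regulate these channels were taken from a list of 39, all measured. Of these, 3 stood at least 2-fold above the input in all 3 saline libraries and 6 at least 2-fold below, with a median log2 ratio of −0.20. Plcb4, a phospholipase C of the pathway by which Gq receptors close Kv7 channels, was 4.73-fold higher, with 36.1 CPM in the input and 172 ± 24.3 CPM in the saline libraries (SD, n = 3). Lgi2, of the secreted family that binds ADAM proteins beside Kv1 channels, was 4.63-fold, and Amigo1, an auxiliary protein of Kv2 channels, 3.05-fold higher. Akap5, the scaffold that brings kinases to Kv7 channels, was 11.5-fold lower, Dpp10, an auxiliary protein of Kv4 channels, 7.33-fold lower and the phospholipase C gene Plcb1 6.69-fold lower. Beside the lower ratios of members and partners stand those of the spiny neuron markers, with a median of −3.13 ± 0.64 (SD of the library medians, n = 3); the part of spiny neuron RNA in these values was not tested.

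Between the treatment groups no member was called. In edgeR's quasi-likelihood test over 14989 genes, with Benjamini-Hochberg adjustment and calls at an adjusted p under 0.05, 0 of 50 tested members passed in each comparison and 0 in the test for any difference among the 3 groups; over all genes the share called was 0% in each. Kcne4 was too low to be tested. DESeq2 on the same genes also called 0 members and 0 genes in each comparison. At an unadjusted p under 0.05 there were 0 members for cocaine against saline, where 5.28% of all genes reached it, 1 for cocaine against yoked (2.61% of genes), 3 for yoked against saline (2.18%) and 2 for any difference (2.8%).

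The members' fold changes centred on 0. The median log2 fold change was −0.028 for cocaine against saline (24 members above 0, 26 below), −0.017 for cocaine against yoked (24 and 26) and 0.030 for yoked against saline (26 and 24), against 0.0049, 0.0011 and −0.014 over all genes. For the 31 members with a mean of at least 5 CPM, the 95% interval had a median half-width of 0.58 (log2), equal to 1.49-fold. Groups did not overlap in 0 members for cocaine against saline (10.3% of all genes), in 1, Kcnh5, for cocaine against yoked (6.78%) and in 3, Kcnh5, Kcnk2 and Kcnk13, for yoked against saline (7.05%).

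For cocaine against saline, the members with the smallest p are given as not passing. Kcnh8 measured 5.06, 2.95 and 5.66 CPM after cocaine and 6.09, 21.3 and 3.47 CPM after saline, so the groups overlapped and saline library 2 stood far above the rest. Its log2 fold change was −1.16 ± 0.54 (SE, adjusted p = 0.850 in edgeR), and −0.068 without saline library 2. Kcnh2 measured 77.7 ± 6.54 against 102 ± 31.7 CPM (SD, n = 3), a log2 fold change of −0.38 with an interval of −0.82 to 0.063, which was −0.15 without saline library 2 and −0.59 without saline library 1. Kcna4 stood at 33.5 ± 4.51 against 40.2 ± 3.46 CPM (SD, n = 3), a log2 fold change of −0.25. Toward higher levels, Kcnh1 measured 12.4, 8.60 and 15.9 CPM against 8.90, 4.90 and 7.20 CPM, with a log2 fold change of 0.82 and an interval of −0.11 to 1.74; 1 cocaine library lay within the saline range. Kcnab3 had a value of 0.51, which was 0.23 without saline library 2, 0.83 without saline library 3 and 0.31 without cocaine library 2, and Kcnh3 one of 0.47, which was 0.31 without cocaine library 1.

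For cocaine against yoked, Kcnk10, a TREK channel gene, had the smallest p. It measured 2.65, 2.51 and 2.31 CPM after cocaine and 4.09, 12.1 and 2.62 CPM in yoked animals, where yoked library 2 alone was high. The log2 fold change was −1.27 with an interval of −2.40 to −0.13 (edgeR adjusted p = 0.9997), and −0.43 without yoked library 2. Kcnk13 measured 1.41 ± 0.894 against 3.43 ± 1.52 CPM and Kcna4 33.5 ± 4.51 against 42.5 ± 6.22 CPM (SD, n = 3). Toward higher levels, Kcnt2 measured 109, 224 and 126 CPM against 102, 153 and 116 CPM, with a log2 fold change of 0.36 that became 0.57 without cocaine library 1 and −0.053 without cocaine library 2. Kcnb2 had a value of 0.34, which was 0.22 without cocaine library 2, 0.13 without yoked library 2 and 0.61 without yoked library 3. Kcnab3 had a value of 0.57, which was 0.36 without cocaine library 2, 0.33 without yoked library 2 and 0.88 without yoked library 3.

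For yoked against saline, Kcnh8 again had the smallest p, with 2.51, 3.36 and 3.64 CPM in yoked animals. Its log2 fold change was −1.71 ± 0.55 (SE, edgeR adjusted p = 0.999), and −0.62 without saline library 2. Kcnb2, a Kv2 subunit, measured 24.4, 18.2 and 34.1 CPM against 30.9, 44.7 and 41.6 CPM, a log2 fold change of −0.62 with an interval of −1.16 to −0.084, which was −0.39 without yoked library 2; 1 yoked library lay within the saline range. Kcna3 had a value of −0.65, and −0.27 without saline library 2. Toward higher levels stood 3 tandem-pore genes. Kcnk10 had a log2 fold change of 1.19, and 0.37 without yoked library 2, and Kcnk13 one of 1.18 with an interval of −0.18 to 2.55. Kcnk2 measured 22.2, 26.8 and 34.5 CPM against 22.1, 9.39 and 21.6 CPM, a value of 0.63 that was 0.32 without saline library 2.

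By family, the log2 fold changes of 8 of 9 tandem-pore genes were above 0 for yoked against saline (median 0.50) and 8 of 9 were below 0 for cocaine against yoked (median −0.35). Those comparisons share the yoked libraries, none of the 9 genes was called in either, and for cocaine against saline 3 of 9 were above 0 (median −0.077). In the ether-à-go-go family 6 of 8 were above 0 for yoked against saline (median 0.39) and 5 of 8 for cocaine against saline (median 0.27), again with none called. Of all 14989 genes, 7183 were above 0 for yoked against saline and 7582 for cocaine against saline, and 7464 were below 0 for cocaine against yoked. Among the 39 partner genes 0 were called in each comparison. For cocaine against saline 2 of the 39 had an unadjusted p under 0.05, where 5.28% of all genes reached it, and both were lower after cocaine. They were Lgi2, whose log2 fold change was −0.58 ± 0.21 (SE, edgeR adjusted p = 0.850), and Vapa, which binds Kv2 channels, at −0.49 ± 0.19. The smallest p among partners toward higher levels belonged to Dlg4 for cocaine against saline (0.25). In the cocaine and yoked comparison the smallest p toward higher levels was that of Plcb4 (0.42), and for yoked against saline that of Adam11 (0.34). The smallest p of all partners for yoked against saline was that of Lgi4, at −2.51. It measured 0.351, 5.38 and 0.428 CPM in saline libraries 1 to 3 and 0.0659 to 0.509 CPM in the yoked libraries. Saline libraries 1 and 3 thus lay within the yoked range.

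**Figure D3:**
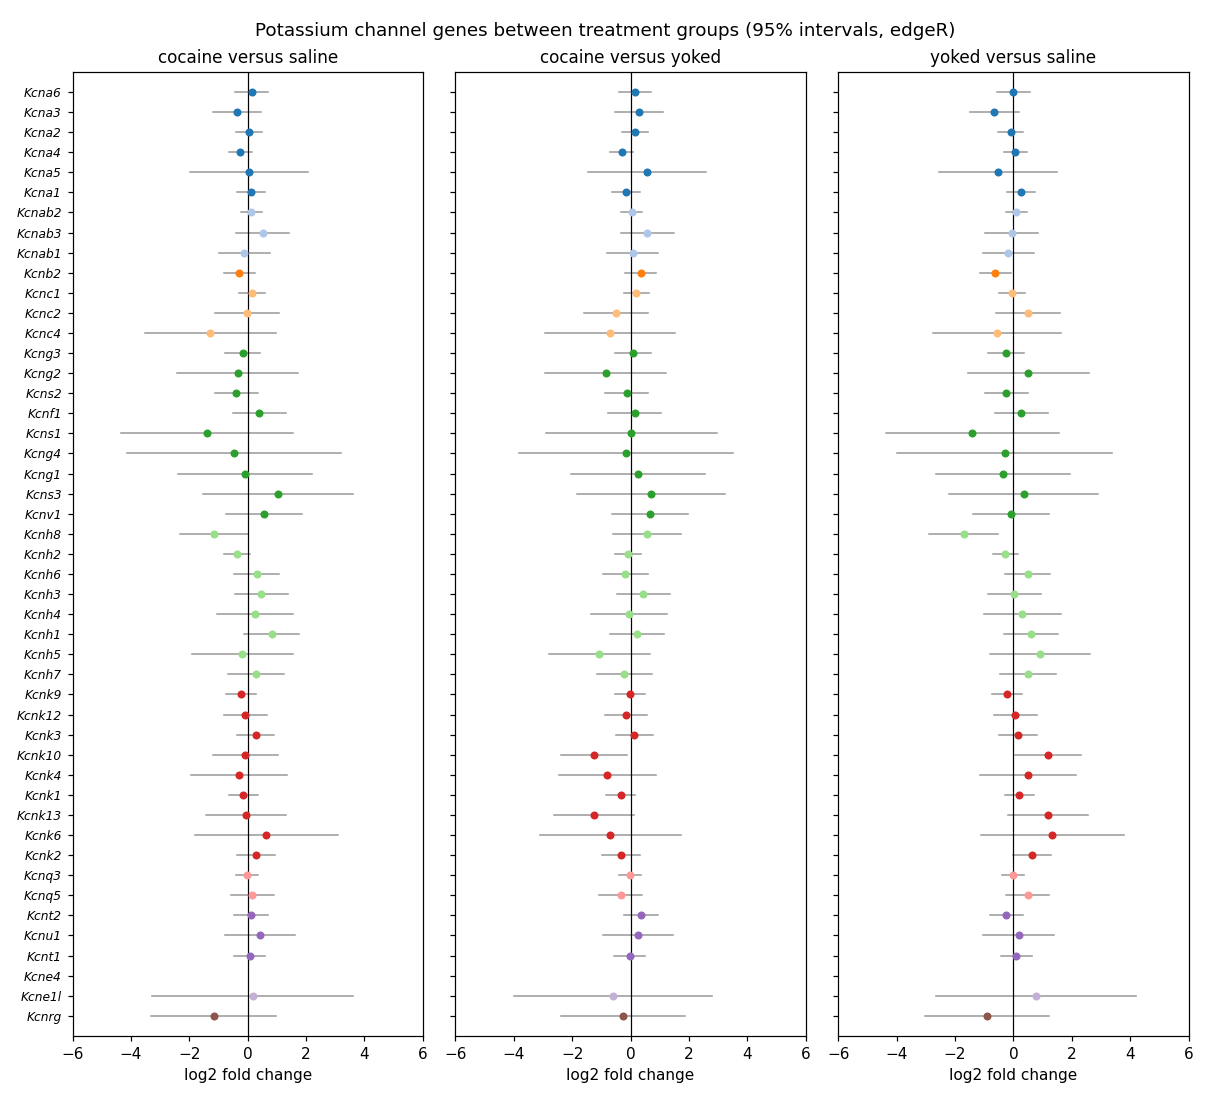
Log2 fold change (points, coloured by family as in the plot of ratios to the input) and 95% interval (lines) from edgeR for 46 potassium channel genes in the 3 comparisons of treatment groups; Kcne4 was not tested. Nearly all intervals span 0 and no gene shown has an adjusted p under 0.05; the widest intervals belong to low genes such as Kcng4 and Kcne1l.

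Libraries with the same replicate number in different groups had like values in several members. Kcng4, Kcnab1, Kcnc2, Kcng3, Kcnt2, Kcna6, Kcng1 and Kcna2 are described because they had the smallest p of the members in the edgeR test for replicate number given below. Their values are thus no separate support for that test. The labels do not say what the number stands for; where they give a sequencing index, same-numbered libraries share it, so number and index cannot be told apart. Kcng4 measured 5.31, 3.58 and 4.08 CPM in the saline, cocaine and yoked libraries numbered 2, and between 0 and 0.510 CPM in the other 6. Kcnc2 measured 18.5, 18.2 and 15 CPM in the libraries numbered 1 and 30.7 to 80.9 CPM in the others. Kcng3, Kcnt2, Kcna6 and Kcna2 were each highest in library 2 of all 3 groups, as were further members, Kcnk9 and Kcnc1 among them. Kcnab1 measured 103, 85.5 and 78.8 CPM in the libraries numbered 1 and 44.4, 29.6 and 31.0 CPM in those numbered 2, and Kcng1 0.255, 0.332 and 0.0988 CPM in those numbered 2 against 1.69 CPM or more in the others.

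In the edgeR fit with a term for replicate number, a test chosen after seeing these values, Kcng4 was the 1 member of 50 that differed by replicate number (adjusted p = 0.0488), where 14 of 14989 genes, 0.0934%, were called. Kcnab1 (adjusted p = 0.0640) and Kcnc2 (0.0722) did not pass. At an unadjusted p under 0.05 there were 13 of 50 members, 26.0%, against 13.9% of all genes. The sum of the 10 spiny neuron markers was 2243, 2026 and 1841 CPM in the libraries numbered 1, 1178, 1120 and 1463 CPM in those numbered 2 and 1014, 1737 and 1837 CPM in those numbered 3. It was thus highest in the libraries numbered 1, where Kcnab1 was also highest, though by little over library 3 in the yoked group; its part in the levels of Kcnab1 was not tested.

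**Figure D4:**
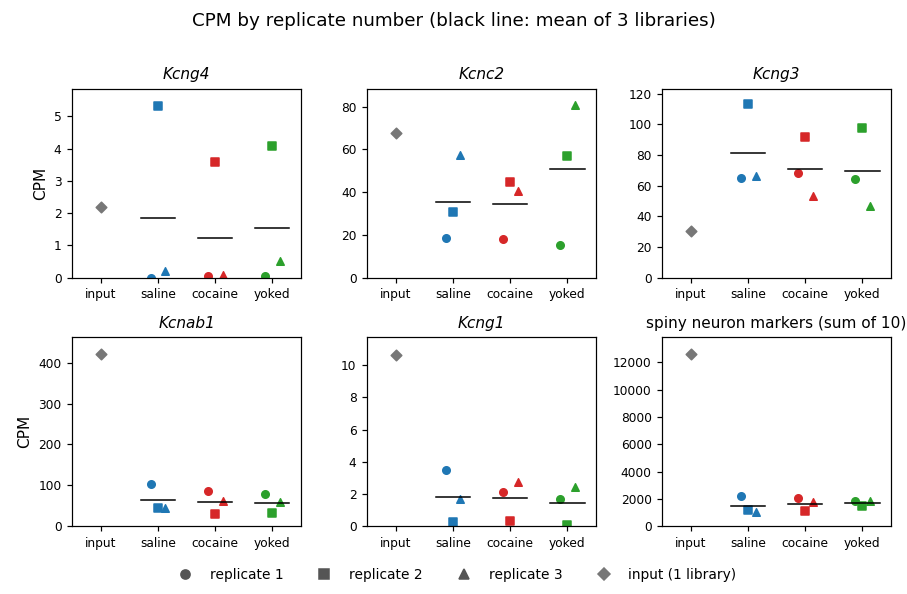
CPM of 5 potassium channel genes and the summed CPM of 10 spiny projection neuron markers in the input (diamond) and in immunopurified libraries of replicate 1 (circle), 2 (square) and 3 (triangle); black lines are group means. Kcng4 is high in the square of each group, Kcnab1 is highest in the circle of each group, and the marker sum is highest in the circle of each group.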

How the data were processed

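Raw read counts per gene symbol were deposited by the authors, 1 table for each of 10 libraries. Per the submitters' processing notes, the tools were STAR 2.0.0e and HTSeq and the build was mm10; annotation, strand setting and filters are not given in the sources used here. Rows that name no gene were left out of the totals: 7.04% to 15.2% of reads lay in no feature, 0.976% to 4.49% were ambiguous and 35.4% to 57.1% aligned more than once. CPM are counts per 1000000 gene counts, and ratios to the input are log2 with 0.5 counts added.

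Groups were compared with edgeR 4.0.16 in R 4.3.3 (quasi-likelihood, trimmed mean of M-values, minimum count 10 and total 15), on 9 immunopurified libraries in 1 fit with 6 residual degrees of freedom and no blocking, and with DESeq2 1.42.0 as an alternative. With simulated counts of known change for cocaine against saline (14645 genes), edgeR's recovery was tested: 45% of 100 genes changed 2-fold and 98% of 100 changed 4-fold were called, with 9 false among 152 calls. The changed genes had a mean of at least 5 CPM, which 31 of the 50 tested members reached, so recovery of lower genes was not measured. Libraries were simulated without an effect of replicate number.

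Named against the input were the 8 highest and 6 lowest ratios with at least 100 counts and the member of each family with most reads, and between treatments the 3 smallest p in each direction; other members are given by family. Members and lists were chosen with earlier results of these data known. Coordinates come from RefSeq, which matched all 51 members, 27 of them without an overlapping gene. Lengths of transcripts were not used, so levels are not compared between genes. Some members and partners are counted but not reported by name here.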

Additional observations from a re-analysis of the deposited data

Results flagged for a closer look

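Some of the 12 potassium channel genes under the count minimum had reads in a cocaine or yoked library above every saline library and the input. These genes entered none of the comparisons. Kcne3, an accessory subunit, had 12 counts in cocaine library 1 (0.489 CPM) and 4 in cocaine library 3 (0.136 CPM) against 0 in the saline libraries and the input. Kcna10 had 18 counts in cocaine library 2 (0.239 CPM) and 0 in all other libraries. Kcnk16 had 8 counts in yoked library 3 (0.291 CPM), with 1 in the input and 0 elsewhere. Kcnk5 measured 0.305 CPM in cocaine library 3 and 0.255 CPM in yoked library 3, against 0.171 CPM in the input, and Kcnq1 0.109 CPM in yoked library 1, from 6 counts, against 0.0733 CPM in the input. No test was made.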

How the results depend on the processing

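The counts of members at least 2-fold above and below the input (6 and 22) stayed within 1.5 times under each alternative: other scalings, count minimums of 10 and 100, a pseudocount of 2 counts, all 9 immunopurified libraries and each saline library left out, with ranges of 5 to 9 and 18 to 26. The median log2 ratio of the members ranged from −1.65 to −1.08 under these. With the count minimum required in the input and in saline alike, chosen after seeing the data, it was −1.02, since fewer genes enter. Between treatments, 0 members were called under every alternative run. With no low-count filter, edgeR called 60 genes between cocaine and saline, 27 between cocaine and yoked, 18 between yoked and saline and 98 in the test for any difference, with 0 members among them; the cause was not tested. With a replicate block, 0 genes were called in each comparison. Same-numbered libraries correlated at 0.049 to 0.29 in their deviations from group means, under 0.1 for some pairs, and 8 of 9 libraries correlated best with their own number. Named fold changes kept their direction in 250 alternative values and changed sign in 2. Kcnh8 for cocaine against saline was 0.16 without the 3 libraries numbered 2, and its range over libraries left out was −1.57 to 0.16. Kcnt2 for cocaine against yoked was −0.053 without cocaine library 2, with a range of −0.053 to 0.57; the cause was not tested. Ratios to the input moved by less than their SD in 351 alternative values and by more in 6, Kcne4, Kcnb2 and Kcnk10 among them.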

Other observations

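Of the other genes under the count minimum, Kcne2 was seen in saline animals alone. It had 1, 5 and 17 counts in saline libraries 1 to 3 (0.0390, 0.159 and 0.404 CPM) and 10 in the input, and 0 in each of the 6 cocaine and yoked libraries. At 0 counts, the floor of 3 counts per library corresponds to 0.0399 to 0.122 CPM in the cocaine libraries, and the value of saline library 1 lies below that floor. Kcnk15 had 0 counts in every library.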
